A study of Mus musculus with 24 samples.

Results

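The genes described here are 10 members of the ETS family of transcription factors: Erg, Fli1, Etv6, Elf1, Elf2, Elf4, Spi1, Ets1, Ets2 and Gabpa. They were chosen by name, and they are 10 of 21631 protein-coding genes on mouse chromosomes 1 to 19 and X. For each gene, the span in the RefSeq table of GRCm38.p6, the mm10 assembly, plus 2 kb either side was searched for called regions in 14 lists from chromatin immunoprecipitation sequencing (ChIP-seq). All 10 genes had a called region in at least 1 list. The widely bound genes lie at chr16:95359169-95586600 (Erg), chr9:32422204-32543432 (Fli1), chr6:134035700-134270158 (Etv6), chr14:79481174-79582491 (Elf1) and chr3:51252720-51340683 (Elf2). The others lie at chrX:48411049-48463132 (Elf4), chr2:91082374-91115759 (Spi1), chr9:32636241-32757820 (Ets1), chr16:95702407-95721049 (Ets2) and chr16:84834891-84863783 (Gabpa). The table holds gene ends and not exons, so regions were not assigned to exons or introns.

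ETS proteins share a DNA-binding domain that recognises a GGAA core, and many of them act in blood formation. Erg and Fli1 are closely related activators needed by haematopoietic stem cells, Spi1 encodes PU.1, a master regulator of myeloid cells, and Etv6 is a repressor needed for adult haematopoiesis in the bone marrow. Elf1, Elf2 and Elf4 form a subfamily of lymphoid and myeloid regulators, Ets1 and Ets2 are paralogues regulated by phosphorylation downstream of Ras signalling, and Gabpa encodes the DNA-binding subunit of GABP, a regulator of many housekeeping promoters. MLL1 is a methyltransferase of lysine 4 of histone H3, and menin tethers it to part of its target genes.

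The series holds 24 ChIP-seq libraries of mouse leukaemia cells grown with IL-3, IL-6 and SCF, and 10 of them are input chromatin with no list used here. The 4 cell lines are named for a fusion of the nuclear pore protein NUP98, found in a group of acute myeloid leukaemias, to HOXA9, HOXD13, JARID1A or NSD1. Cells received the solvent DMSO or VTP50469, an inhibitor of the binding of menin to MLL1, and the 14 lists form 7 pairs of a DMSO and a VTP50469 library. MLL1 was mapped after 72 h in NUP98-HOXA9 cells and after 96 h in the cells of the other fusions (NUP98-HOXD13, NUP98-JARID1A, NUP98-NSD1). Menin was mapped after 96 h in NUP98-HOXD13 and NUP98-HOXA9 cells, and H3K4me3, histone H3 trimethylated at lysine 4, after 96 h in NUP98-HOXA9 cells. The dose was 2 µM by the labels, except in NUP98-NSD1, where the label gives 200 nM and the treatment protocol 2 µM. The sources used here do not give how the fusion was introduced or whether a line is 1 clone. In NUP98-HOXA9 the MLL1 libraries carry another cell name (mm202C-H9C) than the Menin and H3K4me3 libraries (mm202C).

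Each condition had 1 library, so there was no replicate check, no test between conditions was possible, and all differences below are descriptions of these libraries. Covered length means the base pairs of a gene's span and flanks that fall inside called regions. It measures the extent of called binding and not its level. A gene is called shortened where its VTP50469 length was 50% of its DMSO length or less, and lengthened where it was 200% or more. From DMSO to VTP50469, the number of MLL1 regions went from 22534 to 21739 for HOXA9, from 20154 to 14744 for HOXD13, from 15765 to 24950 for JARID1A and from 7113 to 1036 for NSD1. That of Menin went from 9050 to 403 for HOXA9 and from 18826 to 16706 for HOXD13, and that of H3K4me3 from 9443 to 9567. Read depth is unknown, and a list that is shorter as a whole also shortens its members. As a check of the labelled cells, MLL1 regions in DMSO lay at 9, 9, 9 and 3 of 10 blood genes in the 4 lines in the order of HOXA9, HOXD13, JARID1A and NSD1. They lay at 2, 2, 1 and 1 of 10 genes of other tissues, among them Pecam1, which blood cells can also express. Over all 21631 genes, 11469, 11562, 10466 and 5649 had such a region. The 3 blood genes in NUP98-NSD1 were Ptprc, Elane and Vav1. That count lay near the share over all genes, so it does not check that line.

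Start sites and their upstream sequence were taken from the RefSeq promoter table of GRCm38.p6, which lists 12 start sites for 7 of the 10 genes and none for Fli1, Spi1 and Ets1. The 250 bases before a start are shown for the start sites on which the results below turn. The first start of Erg had no called region in any list, and its internal start lies beside MLL1 regions that were lost in NUP98-HOXA9 and NUP98-HOXD13. Etv6 had a region within 1 kb of its start in all 8 MLL1 lists, though in treated NUP98-NSD1 none covered the stretch shown. The internal start of Elf1 lies at the edge of a wide MLL1 domain, and Ets2 had a region near its start in 7 of 8 MLL1 lists. The last line is the match to a full ETS site before the Gabpa start. Sequences read 5′ to 3′ on the strand of the gene, which is minus for Erg and plus for the others, and capitals mark GGAAG or its reverse complement CTTCC, and in the last line CTTCCGG, the reverse complement of CCGGAAG.
Erg first start, chr16:95586594-95586843: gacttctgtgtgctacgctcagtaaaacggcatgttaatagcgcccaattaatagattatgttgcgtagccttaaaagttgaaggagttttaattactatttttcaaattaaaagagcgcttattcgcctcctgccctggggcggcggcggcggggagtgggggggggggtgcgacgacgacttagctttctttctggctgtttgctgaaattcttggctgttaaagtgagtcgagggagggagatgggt
Erg internal start, chr16:95459349-95459598: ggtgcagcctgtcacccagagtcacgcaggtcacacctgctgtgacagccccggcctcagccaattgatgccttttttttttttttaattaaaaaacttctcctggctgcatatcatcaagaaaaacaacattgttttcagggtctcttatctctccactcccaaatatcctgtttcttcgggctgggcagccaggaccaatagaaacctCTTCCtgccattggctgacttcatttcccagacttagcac
Etv6 start, chr6:134035450-134035699: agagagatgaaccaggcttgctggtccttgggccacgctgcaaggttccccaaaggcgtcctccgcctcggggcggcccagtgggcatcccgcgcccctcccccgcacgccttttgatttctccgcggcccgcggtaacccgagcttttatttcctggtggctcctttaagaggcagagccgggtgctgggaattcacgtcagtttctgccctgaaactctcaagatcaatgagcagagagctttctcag
Elf1 internal start, chr14:79515424-79515673: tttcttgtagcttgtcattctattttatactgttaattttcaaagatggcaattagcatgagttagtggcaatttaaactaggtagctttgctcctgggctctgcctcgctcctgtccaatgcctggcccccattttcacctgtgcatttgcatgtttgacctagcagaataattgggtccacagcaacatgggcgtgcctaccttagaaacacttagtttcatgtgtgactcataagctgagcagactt
Ets2 start, chr16:95702157-95702406: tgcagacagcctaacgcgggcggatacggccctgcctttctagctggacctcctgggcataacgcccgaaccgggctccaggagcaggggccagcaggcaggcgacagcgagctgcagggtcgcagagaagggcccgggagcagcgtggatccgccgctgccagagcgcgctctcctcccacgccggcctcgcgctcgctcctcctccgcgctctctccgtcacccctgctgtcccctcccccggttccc
Gabpa, chr16:84835020-84835049: gagggtaagtgCTTCCGGgtccctcagcta

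GGAAG, searched on both strands, was present before 7 of the 12 listed starts, against 65% of 21045 promoters of the same length. The longer CCGGAAG, which contains GGAAG, was present before 1 of 12, at Gabpa 93 bases before the start, against 9.08% of promoters. These matches describe the letters and are no evidence of binding. The upstream stretches at the internal starts of Erg and Elf1 held 3 and 2 CpG dinucleotides, below or at the lower quartile of all promoters (3, with a median of 10). The stretches at the first start of Erg, at Etv6 and at Ets2 held 14, 16 and 25.

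Before treatment, Etv6, Elf1, Erg and Fli1 had the longest MLL1 covered length of the members in NUP98-HOXA9 and NUP98-JARID1A. In NUP98-HOXD13 and NUP98-NSD1, Elf2 exceeded Fli1. Windows differed in length, from 238459 bp at Etv6 and 231432 bp at Erg to 32893 bp at Gabpa. In NUP98-HOXD13 the share of the window covered was 6.74% at Elf1, 4.27% at Etv6, 3.42% at Fli1 and 3.14% at Erg. The others had from 1.14% at Ets1 to 5.29% at Spi1. Etv6 was covered over 18813 bp in NUP98-HOXA9, 10174 bp in NUP98-HOXD13, 12870 bp in NUP98-JARID1A and 16228 bp in NUP98-NSD1. By length it ranked 8th, 7th, 8th and 2nd among all genes of those lists. Elf1 was covered over 9848, 7099, 15297 and 6063 bp in the same order of lines, and it ranked 2nd in NUP98-JARID1A. In the other lines Elf1 ranked 54th, 37th and 20th, so that both genes stood among the most widely covered in every line.

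Erg was covered over 15760 bp in NUP98-HOXA9, 7273 bp in NUP98-HOXD13 and 9937 bp in NUP98-JARID1A, and it had no region in NUP98-NSD1, whose list is the shortest of the 4. Fli1, its closest relative, was covered over 9133, 4277, 6982 and 2686 bp. Elf2 had 5983, 4816, 6876 and 4307 bp. These 5 genes are called the widely covered ETS genes below, since each had at least 4 kb in NUP98-HOXA9 and NUP98-HOXD13.

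The other members had narrow MLL1 regions in most lines. Gabpa had 1675, 1737, 1369 and 431 bp, each time in 1 region at or near its start. Spi1 had 2071, 1979, 1514 and 282 bp. Ets1 had 828, 1432, 4268 and 2295 bp, and Ets2 829, 967, 488 and 336 bp. Elf4 had 2247, 1331 and 1497 bp and none in NUP98-NSD1. By length Ets1 stood among the widely covered genes in NUP98-JARID1A, where it exceeded 4 kb, and not in NUP98-HOXA9, where it had its shortest length. List lengths and the number codes in the library titles differed between lines, and NUP98-HOXA9 was mapped at another time than the other lines. These differences between lines were therefore not tested.

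**Figure D1:**
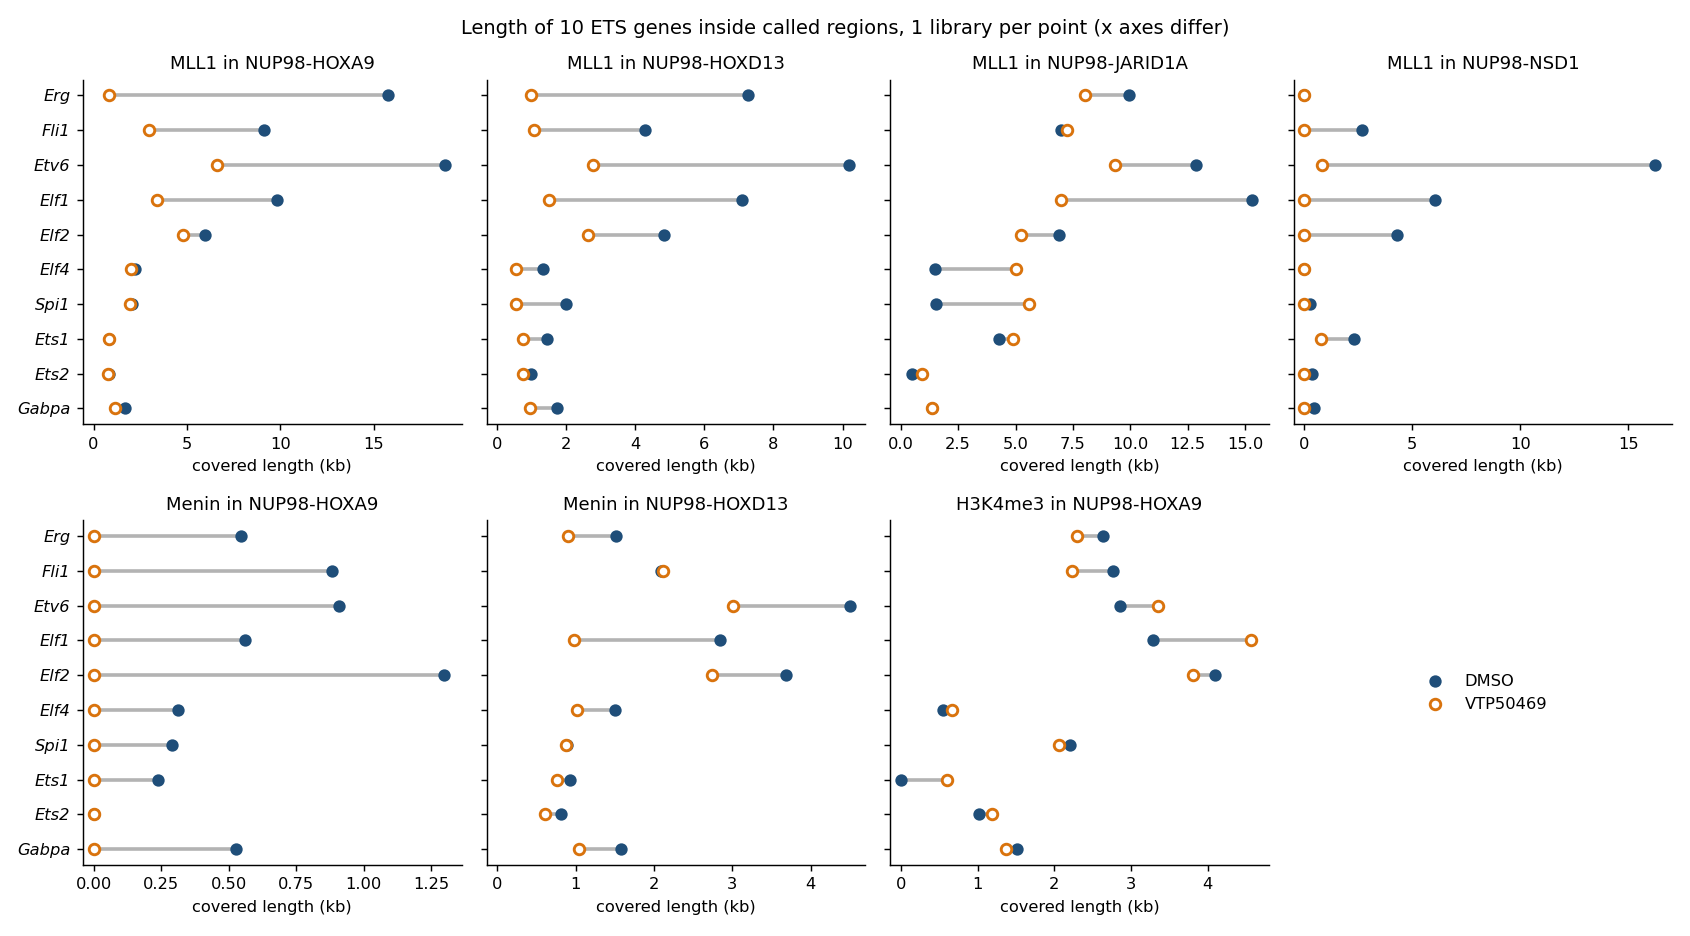
Covered length in kb (x axis, scale differs by panel) of the 10 ETS genes in the DMSO library (filled) and the VTP50469 library (open) of each of the 7 pairs, 1 library per point. The MLL1 length of Erg fell from 15760 to 820 bp in NUP98-HOXA9, and H3K4me3 at Erg went from 2630 to 2293 bp.

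After VTP50469 in NUP98-HOXA9, MLL1 was shortened at Erg, Fli1, Etv6 and Elf1 and at none of the other 6 members. Erg went from 15760 to 820 bp, which left 5.2%. Fli1 went from 9133 to 2977 bp (32.6%), Etv6 from 18813 to 6594 bp (35.1%) and Elf1 from 9848 to 3376 bp (34.3%). Elf2 went from 5983 to 4776 bp (79.8%), Gabpa from 1675 to 1133 bp (67.6%) and Elf4 from 2247 to 2015 bp (89.7%). Spi1 went from 2071 to 1957 bp, Ets2 from 829 to 773 bp, and Ets1 had 828 bp before and 846 bp after. The share left compares 2 lengths, so a treated length can include regions that share no base with the DMSO list. There were 2 such regions at Elf2, 2 at Spi1 and 1 at Elf4.

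Thus 4 of 10 members were shortened, against 12.8% of the 11469 genes with a DMSO region in this pair. Among genes with at least 4 kb in DMSO the background is higher: 59.7% of 375 such genes were shortened, beside 4 of 5 members. The members' summed length went from 67187 to 25267 bp, and their median share left was 73.7%, beside 89.7% over all genes and 44% over genes of at least 4 kb. Erg had the lowest share left of the 375 genes of at least 4 kb in this pair. Fli1, Elf1 and Etv6 ranked 96th, 114th and 119th from the lowest, and Elf2 ranked 344th. A loss of the size seen at Fli1, Elf1 and Etv6 was therefore common among widely covered genes, and the share left at Erg lay at the end of their range.

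**Figure D2:**
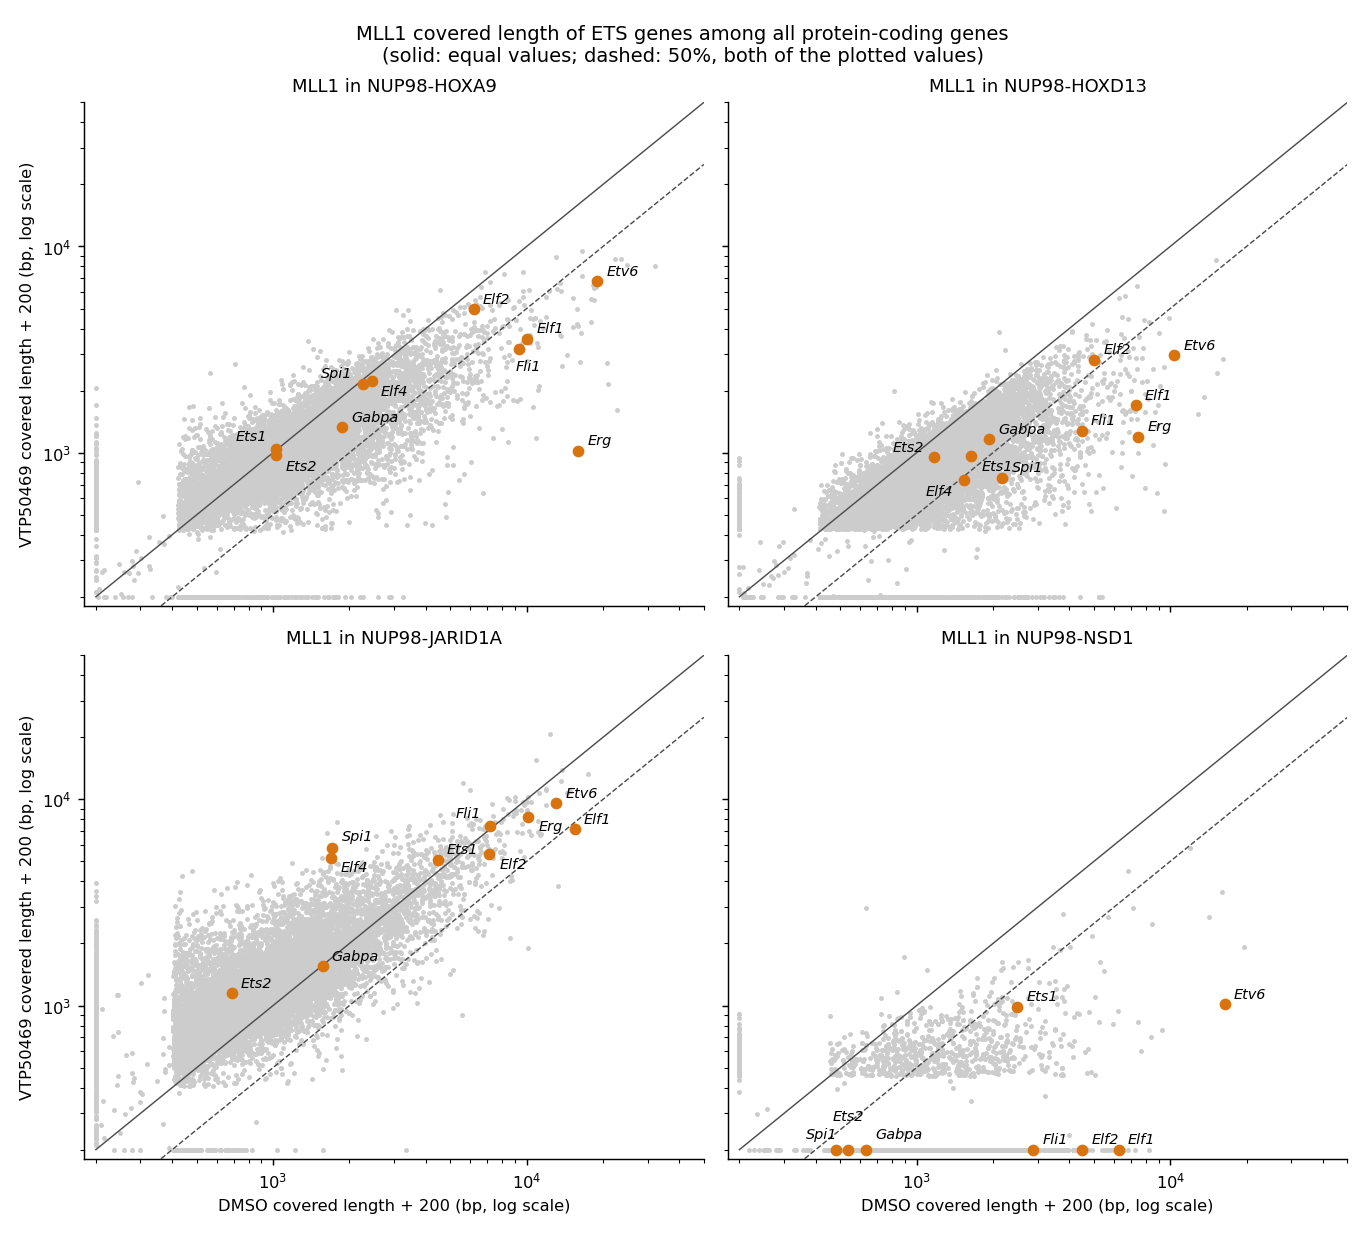
MLL1 covered length plus 200 bp of each protein-coding gene in DMSO (x axis, log scale) and after VTP50469 (y axis, log scale) in the 4 lines, with ETS genes in orange, all other genes in grey, a solid line at equal values and a dashed line at 50%. In NUP98-HOXA9 Erg lies below the other genes of similar DMSO length, with 820 bp left of 15760 bp.

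The regions of Erg show what was lost. In DMSO, NUP98-HOXA9 had 11 MLL1 regions at Erg, among them 5 regions between positions 95447572 and 95459235 of chromosome 16, just after the internal start, and a region of 3004 bp further into the gene (chr16:95438601-95441604). After VTP50469 these regions were absent. The regions left were chr16:95464593-95465047, before the internal start, and chr16:95436666-95437030, far after it. The region before the internal start had the highest fold enrichment at Erg in both lists (16 in DMSO and 20.8 after VTP50469, each within its own list).

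NUP98-HOXD13 showed the same layout. Of its 12 DMSO regions at Erg 9 were lost, among them each of those between positions 95447987 and 95459620, around and after the internal start. The 3 regions left were at the places of the 2 left in NUP98-HOXA9 and at chr16:95439153-95439482. NUP98-JARID1A differed: its widest DMSO region at Erg, 7278 bp (chr16:95452439-95459716), was still present after VTP50469 as regions of 5000 and 654 bp. Across the first and second listed starts of Erg no list had an MLL1, Menin or H3K4me3 region within 1 kb.

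**Figure D3:**
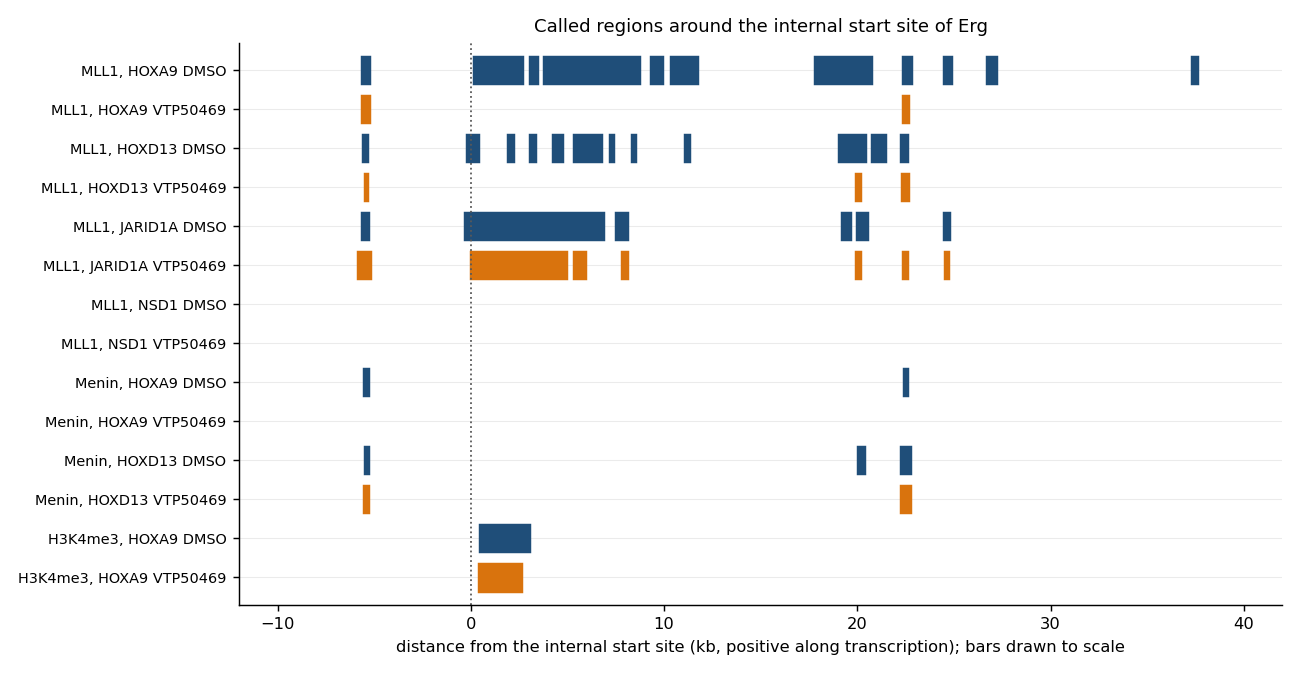
Called regions (bars, to scale) of the 14 lists by distance in kb from the internal start of Erg (dotted line), positive along transcription, DMSO in blue and VTP50469 in orange. In NUP98-HOXA9 the wide bars to the right of the dotted line are absent after VTP50469 and 2 narrow bars are left, while the H3K4me3 bar is present in both lists.

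In NUP98-HOXD13, MLL1 was shortened at 6 of 10 members, against 30.4% of 11562 genes. Erg went from 7273 to 993 bp (13.7%), Elf1 from 7099 to 1496 bp (21.1%), Fli1 from 4277 to 1078 bp (25.2%) and Etv6 from 10174 to 2764 bp (27.2%). Spi1 went from 1979 to 555 bp (28%) and Elf4 from 1331 to 536 bp (40.3%). Above the limit were Ets1 (1432 to 761 bp, 53.1%), Elf2 (4816 to 2619 bp, 54.4%), Gabpa (1737 to 962 bp, 55.4%) and Ets2 (967 to 752 bp, 77.8%).

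All 10 members were thus shorter after treatment in NUP98-HOXD13, and the 4 widely covered genes that were shortened were the ones shortened in NUP98-HOXA9. Of 189 genes of at least 4 kb, 82% were shortened, beside 4 of 5 members. Erg ranked 27th from the lowest share among them, Elf1 63rd, Fli1 81st and Etv6 91st. The members' median share left was 34.2%, beside 66.7% over all genes and 27.9% over genes of at least 4 kb. Where both lists were limited to the same number of best-scoring regions, the share left at Erg was 23.4%, and Spi1 and Elf4 (64.2% and 51.6%) were no longer shortened, which left 4 of 10.

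NUP98-JARID1A, with the same dose and time as NUP98-HOXD13, had a longer list after VTP50469 than before, and its members split. Elf1 was the 1 of 10 members that was shortened, from 15297 to 6985 bp (45.7%), against 2.51% of 10466 genes. Etv6 went from 12870 to 9353 bp (72.7%), Elf2 from 6876 to 5227 bp (76%) and Erg from 9937 to 8028 bp (80.8%). Gabpa (1369 to 1353 bp), Fli1 (6982 to 7251 bp) and Ets1 (4268 to 4892 bp) had between 98.8% and 115% left.

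Lengthened members were 2 of 10, Spi1 from 1514 to 5593 bp (369%) and Elf4 from 1497 to 5018 bp (335%), against 19.3% of genes. Ets2 went from 488 to 945 bp (194%), just below the limit. The members' sum was 89.4% of DMSO (61098 to 54645 bp), beside 131% over all genes. The median over the members was 101%, beside 129% over all genes and 84.6% over genes of at least 4 kb, of which 11.2% were shortened. With lists of the same number of regions, Elf1 had 25.8% left, Elf4 had 105% and Spi1 had 222%, so that Elf4 was no longer lengthened.

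In NUP98-NSD1, treated with the lower dose by its label, almost all called MLL1 was absent after VTP50469, at the ETS genes and elsewhere. Etv6 went from 16228 to 815 bp and Ets1 from 2295 to 786 bp. Fli1 (2686 bp in DMSO), Elf1 (6063 bp), Elf2 (4307 bp), Gabpa (431 bp), Ets2 (336 bp) and Spi1 (282 bp) had no region left. All 8 members with a DMSO region were thus shortened, against 94.1% of 5649 genes, a share near that of the members, and 98.1% of 54 genes of at least 4 kb, among them Etv6, Elf1 and Elf2.

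The MLL1 left in NUP98-NSD1 lay within 1 kb of the start of Etv6 and inside Ets1. The Ets1 site was called in all 8 MLL1 lists, and in the 3 lists treated with 2 µM its shared stretch was chr9:32695608-32696136. With lists of the same number of regions, 4 members had a DMSO region in NUP98-NSD1 and all 4 were shortened.

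Etv6 and Elf1 show where MLL1 was lost within a gene. At Etv6 in NUP98-HOXA9, 4 DMSO regions from 1467 to 2850 bp wide lay at the start and in the part that follows it. After VTP50469 the start kept a region of 1309 bp (chr6:134034753-134036061). In place of the DMSO regions of 1467 and 2850 bp, regions of 1037 and 685 bp were left. The DMSO region of 2780 bp overlapped no treated region. Of 19 DMSO regions at Etv6, 11 overlapped a region of the VTP50469 list. At Elf1 in NUP98-JARID1A, DMSO regions of 5183 bp at the first start and of 7883 bp at the internal start were followed after VTP50469 by a region of 2053 bp at the first start and regions of 2169, 1895 and 569 bp at the internal start. In both genes the first start kept a region in each treated MLL1 list of the lines given 2 µM.

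**Figure D4:**
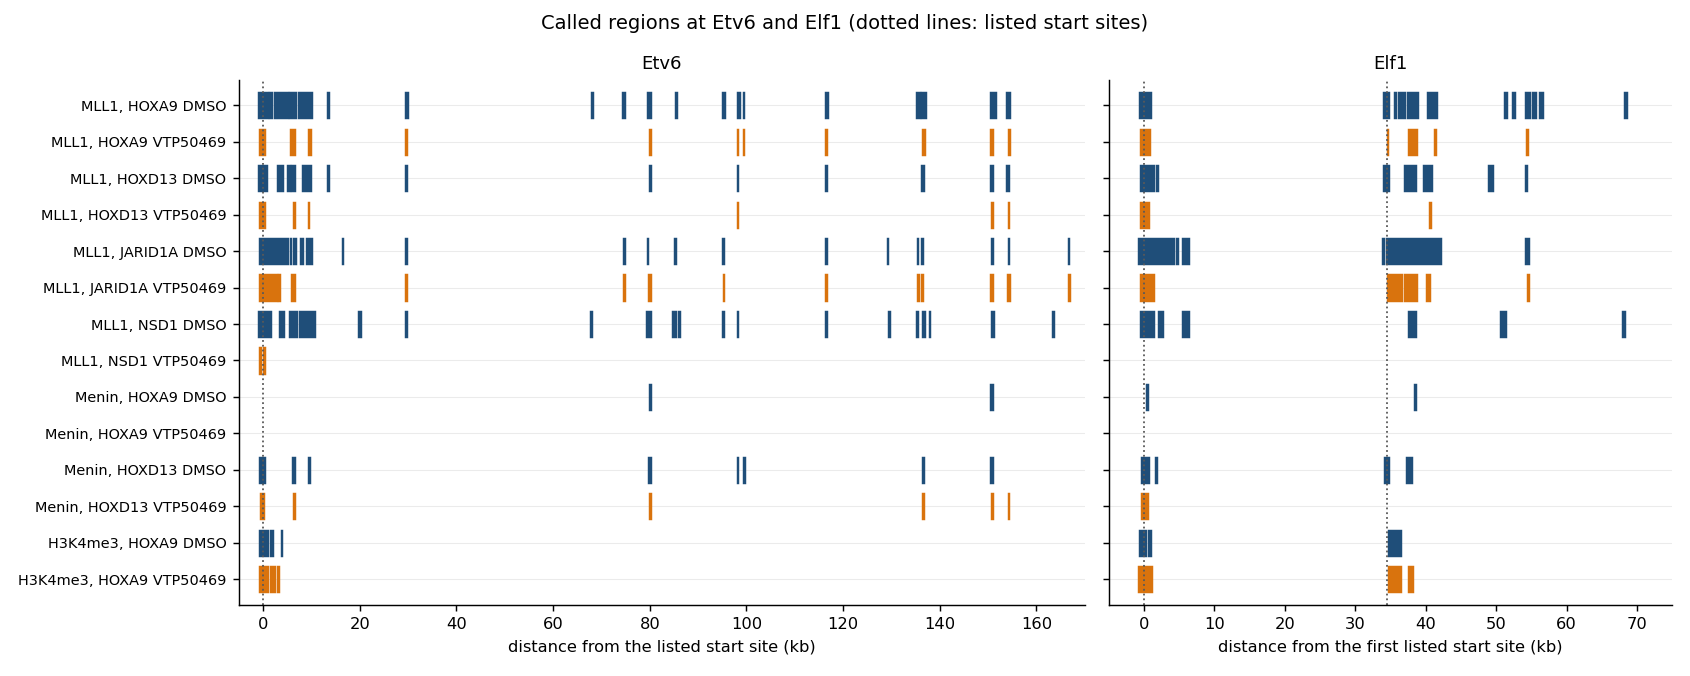
Called regions (bars) of the 14 lists at Etv6 and Elf1 by distance in kb from the first listed start, with listed starts dotted, DMSO in blue and VTP50469 in orange. In the MLL1 pair of NUP98-JARID1A the blue bar at the internal start of Elf1 is 7883 bp wide, with orange bars of 2169, 1895 and 569 bp in its place, while the H3K4me3 bar there is 1819 bp wide in DMSO and 1933 bp after VTP50469.

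The same split was computed for the 7 members with listed starts, a comparison chosen after the maps were seen. In NUP98-HOXA9, 67.2% of the MLL1 length within 1 kb of a start was left (12077 to 8121 bp), and 26.4% of the length elsewhere in the windows (43078 to 11366 bp). Over all 17274 genes with a start the values were 83.6% and 66.4%. In NUP98-HOXD13 the members had 54.5% left near starts (11211 to 6107 bp) and 18.1% elsewhere (22186 to 4015 bp), beside 63.8% and 47.6% over all genes.

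NUP98-JARID1A had 97.1% left near the members' starts (12814 to 12441 bp) and 68.9% elsewhere (35520 to 24468 bp), where all genes had 122% and 144%. In these 3 lines the summed length left near the members' starts was thus a larger share than elsewhere, and Etv6, Elf1 and Elf2 each showed this order in each line. Elf4 had the opposite order, with 39.1% left near its starts and 120% elsewhere in NUP98-HOXA9, 0% and 86.5% in NUP98-HOXD13, and 145% and 628% in NUP98-JARID1A. Erg did too, with 0% and 5.51%, 0% and 15.1%, and 75.7% and 81.6%. Within 1 kb of the internal start of Erg, MLL1 went from 888 to 0 bp in NUP98-HOXA9, from 685 to 0 bp in NUP98-HOXD13 and from 1369 to 1037 bp in NUP98-JARID1A. Near the internal start of Elf1 it went from 879 to 239 bp, from 858 to 0 bp and from 1406 to 1039 bp.

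Counted as regions, 38 of 76 DMSO regions of MLL1 at the members were lost in NUP98-HOXA9 (50%, 95% Wilson interval 39% to 61%, which covers counting error only), sharing no base with the treated list. All regions of that list were lost at 21.5%, and regions at genes of at least 4 kb at 46.4%. In NUP98-HOXD13 33 of 55 were lost (60%), beside 32.7% and 55.9%. In NUP98-JARID1A 18 of 60 were lost (30%), beside 8.6% and 25.5%, and in NUP98-NSD1 37 of 39 (94.9%, interval 83.1% to 98.6%), beside 89.2% and 88.5%. The members' shares thus lay nearer to those at genes of at least 4 kb than to those of the whole lists in the 3 lines given 2 µM. In NUP98-NSD1 the share of the whole list lay inside the members' interval, but 19 of the 39 regions lay at Etv6. Regions of the same gene are not independent, so the interval does not decide whether the shares differ. No test of these differences was made.

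Menin was called at 9 of the 10 members in NUP98-HOXA9, over 238 to 1297 bp each, and at none after VTP50469. Ets2 had no Menin region in either list of that line. All 9 were therefore shortened, against 98.7% of 7489 genes, and the VTP50469 list held 403 regions in all. In NUP98-HOXD13, Menin was shortened at 1 of 10 members, Elf1 (2849 to 977 bp, 34.3%), against 13.5% of 11560 genes. Menin there went from 4504 to 3006 bp at Etv6, from 3693 to 2742 bp at Elf2, from 2088 to 2120 bp at Fli1 and from 1520 to 903 bp at Erg. The remaining members went from 1583 to 1042 bp (Gabpa), 1504 to 1015 bp (Elf4), 934 to 764 bp (Ets1), 896 to 881 bp (Spi1) and 819 to 616 bp (Ets2).

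In the same line MLL1 was shortened at 6 of 10 members. With lists of the same number of regions, 0 of 10 members were shortened for Menin and 4 of 10 for MLL1 in NUP98-HOXD13, and Menin at Erg went from 846 to 903 bp. Both were mapped at 96 h, but the number codes in the library titles differ between the antibodies, and the difference between them was not tested. Counted as regions, Menin was lost at the members in 15 of 15 DMSO regions in NUP98-HOXA9, beside 96.3% of the list, and in 11 of 32 in NUP98-HOXD13 (34.4%), beside 20% of the list.

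Menin covered a smaller share of the MLL1 length at Erg, Fli1, Etv6 and Elf1 than at Elf2 and Gabpa in both lines. In NUP98-HOXA9 DMSO cells, 3.46% of the MLL1 length at Erg also lay in Menin regions, 4.83% at Etv6, 5.7% at Elf1 and 9.66% at Fli1. Elf2 had 21.7%, Ets1 28.7% and Gabpa 31.5%. Elf4 (12.5%) and Spi1 (14%) lay between, and Ets2 had the lowest share, 0%, though its MLL1 was not shortened. Over the members it was 8.23%, beside 24.7% summed over all genes, where a base in the windows of several genes counts more than once. In NUP98-HOXD13 the share was 14.9% at Erg, 26.3% at Fli1, 36.9% at Etv6 and 37.3% at Elf1, against 76.7% at Elf2, 84.7% at Ets2 and 91.1% at Gabpa. Spi1 (37.7%) lay close to Elf1, followed by Ets1 (42.7%) and Elf4 (51.8%). Over the members it was 40.8%, beside 67% over all genes.

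Over the members together, a larger share of the MLL1 regions that overlapped a Menin region in DMSO was kept than of the others. In NUP98-HOXA9, 15 of 76 MLL1 regions at the members overlapped a Menin region and all 15 were kept, and 23 of the 61 others were kept (37.7%). Over the whole list 99.6% and 65.5% were kept. At Erg the 2 regions with Menin (chr16:95436500-95437044 and chr16:95464560-95465019) were the 2 that were kept, and the 9 without Menin were lost. In NUP98-HOXD13, 19 of 26 regions with Menin were kept and 3 of 29 without, beside 84% and 10.8% over the whole list, and at Erg 3 of 3 and 0 of 9. Elf1 did not follow this order in NUP98-HOXD13, with 1 of 4 regions kept with Menin and 1 of 3 without.

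The MLL1 regions with Menin were also wider and more enriched. In NUP98-HOXA9 the median width at the members was 906 bp with Menin and 520 bp without, and the median fold enrichment within that list was 10.9 and 5.83. In NUP98-HOXD13 the medians were 734 and 477 bp, and 8.05 and 4.46. The part of width and enrichment in the difference was not tested. In NUP98-HOXA9, Menin at 96 h was set beside MLL1 at 72 h.

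H3K4me3, the mark placed by MLL1 and related enzymes at active promoters, was shortened at 0 of 9 members with a region in NUP98-HOXA9, against 5.68% of 9169 genes. Erg went from 2630 to 2293 bp, Fli1 from 2765 to 2230 bp, Spi1 from 2206 to 2056 bp and Elf2 from 4097 to 3803 bp. Elf1 went from 3281 to 4567 bp, Etv6 from 2855 to 3352 bp, Gabpa from 1517 to 1373 bp, Ets2 from 1023 to 1184 bp and Elf4 from 546 to 670 bp. Ets1 had no H3K4me3 region in DMSO and 599 bp after VTP50469, at its kept MLL1 site. Of 16 DMSO regions of H3K4me3 at the members 1 was lost, beside 9.4% of the list.

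At Erg, MLL1 and H3K4me3 thus differed. The H3K4me3 region (chr16:95456313-95458942 in DMSO and chr16:95456683-95458975 after VTP50469) lies among the MLL1 regions after the internal start that were absent after treatment. Of the 16 MLL1 regions at the members that overlapped H3K4me3, 9 were kept, and of the 60 others 29, whereas over the whole list 92.2% and 70.7% were kept. The median MLL1 fold enrichment with and without H3K4me3 was 6.11 and 6.24 at the members, and 14.6 and 6.8 over the whole list. The part of enrichment in the shares kept was not tested. MLL1 was mapped at 72 h and H3K4me3 at 96 h, so these lists do not show both at the same time. A length does not show a change in the height of a mark.

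Stretches called in all 3 MLL1 lists treated with 2 µM were found at every member, 19 stretches in all with 10682 bp together. Erg had 2 (318 and 246 bp), Fli1 3 (283 to 384 bp), Etv6 4, Elf2 3 and Elf4 2. Elf1 had 1 of 1265 bp at its first start, Gabpa 1 of 962 bp, Ets2 1 of 632 bp, Ets1 1 of 529 bp and Spi1 1 of 435 bp (chr2:91082774-91083208). Of the 19, 18 were in the Menin list of NUP98-HOXD13 in DMSO and 12 in that of NUP98-HOXA9 (94.7% and 63.2%), beside 96.9% and 62% of 13048 such stretches in the genome. These shares at the members were thus close to those over the genome.

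Of the 19 stretches, 16 were also in all 3 MLL1 DMSO lists of these lines (84.2%, beside 80.1% over the genome). The Erg stretch chr16:95436713-95437030 and the Elf4 stretch chrX:48425387-48425678 were absent from the DMSO list of NUP98-JARID1A, and the Elf4 stretch chrX:48433570-48433768 was in none of the 3. The 2 Erg stretches and the 3 Fli1 stretches lay outside H3K4me3 regions, and so did the Spi1 stretch. They differ in that from the stretches at the starts of Etv6, Elf1, Elf2, Ets2 and Gabpa, which overlapped H3K4me3 regions in whole or in part. Both Elf4 stretches and the Etv6 stretches away from its start also lay outside H3K4me3 regions.

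Spi1 and Fli1 have no listed start, and their regions are given from an annotated end. At Spi1 the kept stretch lies within 1 kb of the lower end of the span, and the H3K4me3 region (chr2:91096795-91099000) lies further along the gene. In NUP98-HOXD13 the region at the kept stretch was the 1 of 4 MLL1 regions left. In NUP98-JARID1A the DMSO list had 3 regions at Spi1 and the VTP50469 list 9, the widest of which covered the kept stretch with 1198 bp and a fold enrichment of 60 within its list. At Fli1 in NUP98-JARID1A, a region of 3399 bp at the higher end (chr9:32540013-32543411) was 3209 bp long after VTP50469. In NUP98-HOXA9 the same end had a DMSO region of 1320 bp.

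**Figure D5:**
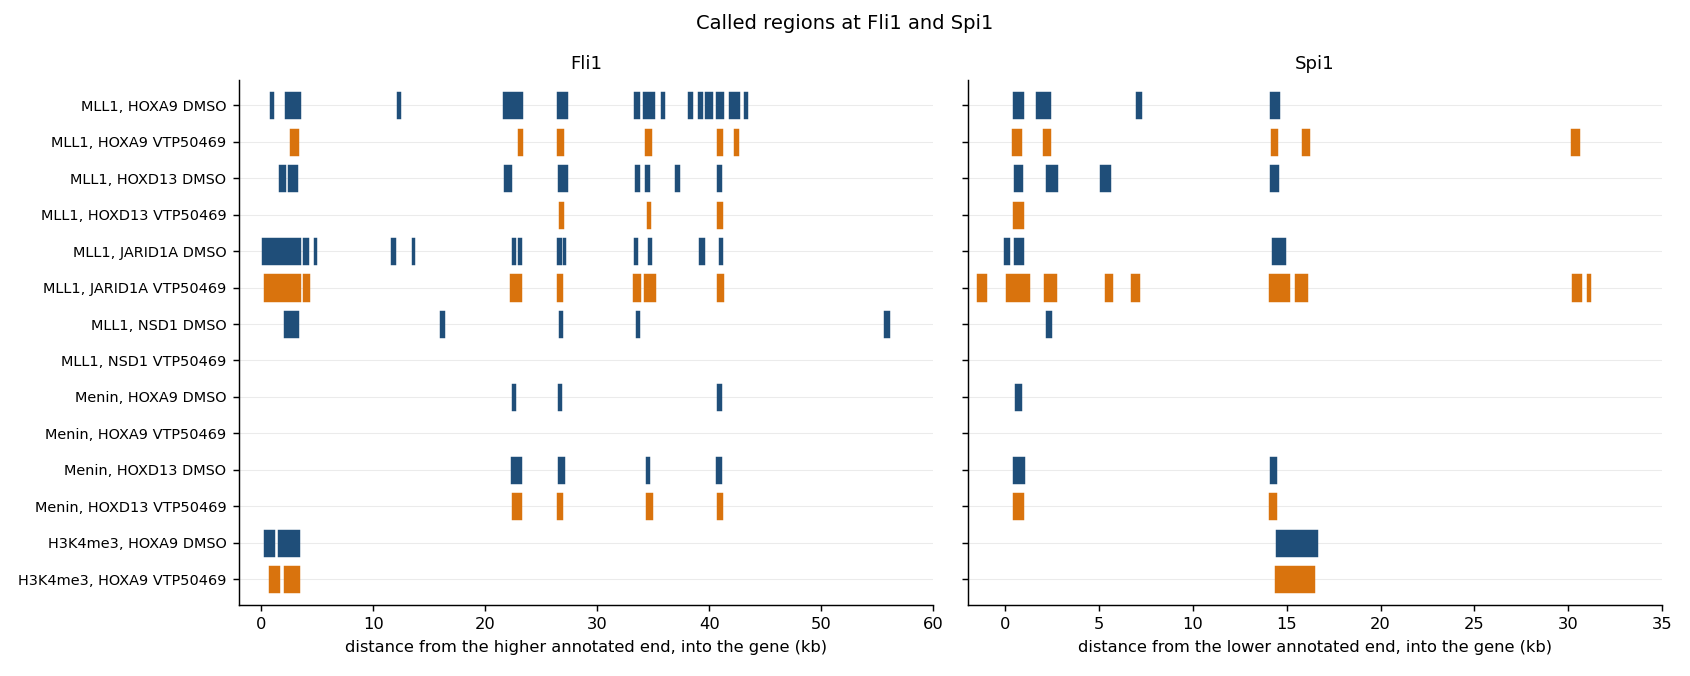
Called regions (bars) of the 14 lists at Fli1 and Spi1 by distance in kb from an annotated end of the gene, DMSO in blue and VTP50469 in orange. At Spi1 the treated NUP98-JARID1A list has 9 bars against 3 in DMSO, and the treated NUP98-HOXD13 list has 1 against 4.

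Fli1 and Ets1 are neighbours on chromosome 9, and Erg and Ets2 on chromosome 16. The 88808 bp between the windows of Fli1 and Ets1 held at most 747 bp of called regions in any of the 14 lists, and the 111806 bp between those of Erg and Ets2 at most 946 bp. The wide MLL1 regions thus ended within Erg and Fli1 and did not run on to the neighbouring ETS gene. Ets2 had 93.2% and 77.8% left in NUP98-HOXA9 and NUP98-HOXD13, the lines in which Erg was shortened. With only regions of a −log10 q of at least 5, Ets2 in NUP98-HOXD13 had 0% left (967 to 0 bp) and Erg 20%. Windows of 4 members contain part of another protein-coding gene (Gm46977 at Etv6, Wbp4 at Elf1, Noct at Elf2 and Atp5j at Gabpa), so regions at a shared end belong to both.

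Other genes tied to the members by family or complex were listed for comparison. Of the 16 other ETS genes, 8, 9, 5 and 3 had an MLL1 region in DMSO for HOXA9, HOXD13, JARID1A and NSD1. Over all 21631 genes, 11469, 11562, 10466 and 5649 had such a region. Against 12.8%, 30.4%, 2.51% and 94.1% of all genes with a DMSO region, 2, 3, 0 and 3 of these other ETS genes were shortened. Elk4, a partner of serum response factor and the longest of them, went from 2847 to 1222 bp in NUP98-HOXA9 and from 2523 to 1156 bp in NUP98-HOXD13, and the related Elk3 from 2195 to 813 bp and from 1676 to 258 bp. In NUP98-JARID1A Elk4 went from 3204 to 2686 bp. Erg and Fli1 act with Tal1, Lyl1, Lmo2, Gata2 and Runx1 in a group of stem cell factors known as the heptad. Of these 5 partners, 4 were shortened in NUP98-HOXA9, 5 in NUP98-HOXD13 and 0 in NUP98-JARID1A, against 12.8%, 30.4% and 2.51% of all genes with a DMSO region. Among genes of at least 4 kb it was 59.7%, 82% and 11.2%, but most partners were shorter than that in NUP98-HOXA9 and NUP98-HOXD13. In NUP98-HOXA9 only Lmo2 (4074 bp) and Runx1 (9514 bp) reached 4 kb, and of these only Lmo2 was shortened. In NUP98-HOXD13 only Runx1 (8821 bp) reached it and was shortened. In NUP98-JARID1A all but Tal1 reached it. In NUP98-NSD1, 2 of the 5 had a DMSO region and both were shortened, against 94.1% of all genes.

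Runx1 went from 9514 to 7295 bp in NUP98-HOXA9 and from 8821 to 3597 bp in NUP98-HOXD13. Lmo2, a bridging protein of the complex, went from 4074 to 1404 bp and from 3453 to 833 bp. Gata2 went from 2398 bp to none in NUP98-HOXA9, from 3580 to 356 bp in NUP98-HOXD13 and from 9916 to 10043 bp in NUP98-JARID1A. Of the 2 genes for the beta subunits that pair with Gabpa, Gabpb1 was shortened in NUP98-HOXD13 (2506 to 871 bp) and not in NUP98-HOXA9 (2135 to 1161 bp), and Gabpb2 in neither of these lines.

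The genes with the most similar covered length over the 8 MLL1 lists were found for Etv6, Elf1 and Erg by Euclidean distance of log2 of the length plus 200 bp. For Etv6 they were Foxp1 (distance 1.53), Baz2b (1.69) and Akap13 (1.91). Foxp1, a forkhead factor, went from 31785 to 7813 bp in NUP98-HOXA9. For Elf1 they were Arid1b (0.87), Rreb1 (0.96) and Rsbn1l (1.19), and for Erg Ikzf2 (1.95), Bahcc1 (2.44) and Eya1 (2.46). The nearest gene to Erg, Ikzf2, went from 4927 to 871 bp in NUP98-HOXA9, where Erg went from 15760 to 820 bp, so that no gene lay as close to Erg as the nearest ones did to Etv6 and Elf1.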

How the data were processed

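ChIP-seq regions of MLL1, Menin and H3K4me3 were deposited as 1 interval list per library, on mm10. The submitters' processing notes name MACS2, STAR 2.7.5a, SAMtools, bedtools, Picard 2.9.4 and bcl2fastq 2.20.0.422. Their roles and settings and the control input of each list were not given in the sources used here. By the labels, NUP98-NSD1 had input from VTP50469 cells only. NUP98-HOXA9 had input from DMSO cells only at 72 h and from VTP50469 cells only at 96 h. The other condition of these pairs thus had no input of the same label, and the part of this in the lengths was not tested. The deposited fold enrichment is the authors' ratio for each region and is used only within a list. The deposited −log10 p and q values were at least 2.00 for q in all lists, so a weaker region is not listed. The authors' deposited score was not used.

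Gene spans came from RefSeq (GRCm38.p6). Covered length, overlaps (at least 1 bp) and counts were computed with Python 3.11.15, pandas 2.3.3 and numpy 2.4.6, and the code was tested on simulated intervals. Groups follow the labels (line, antibody, agent, time). All members are named in the text. Of other genes, values were given for at most 4 of a list, those with the longest DMSO length, and for the 3 nearest to Etv6, Elf1 and Erg. The members, the lists and the 4 kb limit were chosen with earlier results of these data known. Alternatives were lists cut to the same number of regions by q, −log10 q of at least 5, no flank, a 20 kb flank, a limit of 33%, regions up to 1 kb apart joined, and 50% of a region shared.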

Additional observations from a re-analysis of the deposited data

Results flagged for a closer look

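Spi1 and Elf4 moved in opposite directions in NUP98-HOXD13 and NUP98-JARID1A under the same dose and time. The share of DMSO covered length of MLL1 left after VTP50469 was 28% at Spi1 in NUP98-HOXD13 and 369% in NUP98-JARID1A. At Elf4 it was 40.3% and 335%. The difference between the lines was not tested, since each condition had 1 library. The lists moved the same way as a whole, from 20154 to 14744 regions in NUP98-HOXD13 and from 15765 to 24950 in NUP98-JARID1A, and the part of this in the difference was not tested. With lists of the same number of regions the shares were 64.2% and 222% at Spi1, and 51.6% and 105% at Elf4.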

How the results depend on the processing

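Read depth is unknown, a region under the −log10 q limit of its list is not seen, and 1 library per condition gives no error for any length. With a limit of 33% in place of 50%, the count of shortened members was 2 for MLL1 in NUP98-HOXA9, 0 for MLL1 in NUP98-JARID1A and 0 for Menin in NUP98-HOXD13. With lists of the same number of regions it was 4 of 4 for MLL1 in NUP98-NSD1 and 0 for Menin in NUP98-HOXD13, and no member had a Menin region in NUP98-HOXA9, so that no count was possible there. Without flanks it was 2 for Menin in NUP98-HOXD13. Requiring 50% of a region to be shared gave 2 lost H3K4me3 regions at the members in place of 1. The other counts stayed within 1.5 times of the values above. Of the single-gene shares, 45 of 53 stayed within that range with lists of the same number of regions, 61 of 64 with a −log10 q of at least 5, 62 of 66 without flanks and 65 of 66 with 20 kb flanks. Genes with no DMSO length under a setting were left out. No shortened gene became longer than in DMSO, and no lengthened gene became shorter. Changes of direction at other genes were not counted, such as that of Menin at Erg in NUP98-HOXD13 with lists of the same number of regions. No paired analysis was possible because each condition had 1 library and no result came from a test.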
